A study of Mus musculus with 15 samples.

Results

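Isolated regions were defined here as intervals of accessible chromatin on chromosomes 1 to 19 whose neighbouring intervals on both sides lay 100000 bp or more away, measured from the end of an interval to the start of the next. Intervals at a chromosome end were left out, because they lack a neighbour on a side. The table of ATAC-seq counts held 43020 intervals (called regions below), and 1677 of them, 3.90%, met this rule. The rule used positions in the mouse build mm9 and no measured signal of any line.

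ATAC-seq marks open chromatin by letting a transposase insert sequencing adapters into DNA that is not wrapped tightly around nucleosomes. Open sites cluster at promoters and in gene-rich parts of a genome, whereas gene deserts, long stretches with few or no genes, hold scattered open sites. Some such sites are distal enhancers or insulators, elements that act on genes over long distances or bound chromatin domains, and others have no known role.

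The samples were 15 mouse colon cancer organoid lines, all of the genotype labelled AKP and all taken from C57Bl6 recipient mice. The sources used here do not spell out the alleles behind that label. Liver metastases gave the lines Met1, Met2 and Met3, numbered by the transplantation round. Primary tumours of rounds 2 and 3 gave the control lines Primary2 and Primary3, and each of the 5 groups held 3 lines. Between rounds, organoids were put back into the colons of immunocompetent mice. Every library was made with the TDE1 transposase from dissociated organoid cells, so a line is a mixture of cells, and fewer cells with an open site cannot be told apart from a less open site per cell. The descent of single lines was not stated in the sources used here, so a p-value speaks of the spread among these lines alone, which may share ancestors. Total counts in regions ran from 285633 to 5916109 per library, and those in isolated regions from 4736 to 97372. In the shallowest library, Primary3 replicate 2, 697 isolated regions (41.6%) had a count of 0. Signal is given below as CPM, read counts per library scaled to a common size after TMM normalisation, and in that library a single read was worth 3.19 CPM.

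Isolated regions lay far apart and were often next to each other. The smaller of a region's 2 gaps had a median of 175712 bp and a highest value of 1893227 bp, while the larger gap had a median of 429645 bp. The smaller gap was 200 kb or more for 709 regions (42.3%) and 500 kb or more for 150 regions (8.94%). Across chromosomes 1 to 19 the median gap between neighbouring regions was 14915 bp. Of the isolated regions 70.8% were next to another isolated region, and 386 had one on both sides. Just inside the threshold were peak_20248 on chromosome 12 and peak_31926 on chromosome 15, with smaller gaps of 100002 and 100083 bp and mean signals of 3.17 and 3.53 CPM. Just outside were peak_101545 on chromosome 9 and peak_98711 on chromosome 8, with 99953 and 99952 bp and mean signals of 5.65 and 13.1 CPM.

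The distance is measured within the deposited table, which does not list every peak number. The authors numbered peaks along each chromosome up to 108089, and the table holds 43020 of them. Between 1587 isolated regions (94.6%) and at least 1 of their neighbours, peak numbers were skipped, with a median of 4 skipped numbers per isolated region against 1 per region that was not isolated. For 90 isolated regions (5.37%) no number was skipped on either side. The sources used here do not say what the skipped numbers stood for, so isolated means far from any other region of this table.

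Chromosome 1 held the largest share of isolated regions, 157 of its 2923 regions (5.37%), followed by chromosome 12 (5.20%). Chromosome 11 held the smallest, 68 of 2803 (2.43%), next to chromosome 19 (2.51%). Isolated regions were narrow and weak. Their median width was 488 bp against 746 bp in the whole table, and their median mean signal was 5.46 CPM against 13.5 CPM. Per length the gap was smaller, with medians of 11 and 17 CPM per kb. A count of 0 in at least 1 line was found for 900 isolated regions (53.7%), against 28.6% of all regions. Some were nonetheless strong, since 346 (20.6%) had a mean signal at or above the median of the table.

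The strongest isolated region was peak_73170, chromosome 5 from 60434012 to 60434387, with 1117047 bp to its left neighbour and 513551 bp to its right. It had 509, 445 and 370 CPM in Met1, 383, 322 and 281 in Met2 and 448, 427 and 245 in Met3. It had 368, 292 and 298 CPM in Primary2 and 327, 319 and 306 in Primary3. The region was open in every line and the ranges of all 5 groups met or overlapped those of another group. At 949 CPM per kb it ranked 1 of the 43020 regions by signal per length, and its score by the authors, 5097, was the highest of the table, with the next at 1095. Metastasis lines of rounds 2 and 3 did not differ from primary lines past the threshold (log2 fold change 0.14 ± 0.14 SE, edgeR BH-adjusted p = 0.557).

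The next strongest were also open in every line. On chromosome 16, peak_37175 (42875068 to 42876068) had 305, 257 and 292 CPM in Met2 and 248, 315 and 228 in Met3, against 194, 236 and 127 in Primary2 and 176, 226 and 196 in Primary3. Met1 had 200, 255 and 228 CPM. Each round's metastasis lines were above its primary lines without overlap, by a small amount, and the region was called higher in rounds 2 and 3 together (log2 fold change 0.52 ± 0.15 SE, edgeR BH-adjusted p = 0.0133). That call was lost without Met3 replicate 2 (0.44, edgeR BH-adjusted p = 0.0526) and without Primary2 replicate 3 (0.41). On chromosome 2, peak_53357 (53049842 to 53051408) had group means of 106, 105, 127, 108 and 120 CPM in Met1, Met2, Met3, Primary2 and Primary3 and a log2 fold change of 0.04 ± 0.13 SE (edgeR BH-adjusted p = 0.863). Of the tested isolated regions with a mean signal at or above their median, peak_53357, peak_42191 on chromosome 17 and peak_20528 on chromosome 12 varied least among the 15 lines on the log2 scale.

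As a whole, isolated regions took a larger share of the counts in metastasis than in primary lines of the same round. Their share was 2.28%, 1.77% and 1.95% in the Met2 lines and 1.68%, 1.65% and 1.62% in the Primary2 lines. In round 3 it was 1.78%, 1.89% and 1.85% in Met3 and 1.40%, 1.66% and 1.65% in Primary3. Within each round every metastasis line lay above every primary line. The Met1 lines had 2.59%, 1.74% and 1.67%, of which the highest was the highest of all 15 and the lowest lay below the highest Primary2 line. Group means were 2.00% ± 0.513 (SD, n = 3) in Met1, 2.00% ± 0.262 in Met2, 1.84% ± 0.0528 in Met3, 1.65% ± 0.0305 in Primary2 and 1.57% ± 0.146 in Primary3. These shares are given as a description, with no test, because they sum over regions chosen with earlier results of these data known. Met1 replicate 1 also had the most even signal over all regions, with a coefficient of variation of 1.0, while Primary3 replicate 2 had the least even, 1.43. The part of such evenness in the shares was not tested.

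**Figure D1:**
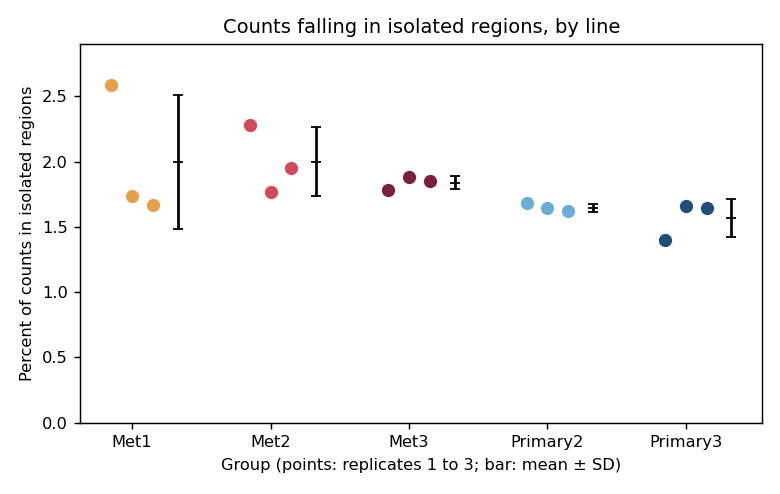
Share of each library's counts that fell in the 1677 isolated regions, in percent, by group; points are the 15 lines and bars the group means with the SD of 3 lines. Met2 lines (1.77% to 2.28%) and Met3 lines (1.78% to 1.89%) lie above the primary lines of their rounds (1.62% to 1.68% and 1.40% to 1.66%), and Met1 lines spread from 1.67% to 2.59%.

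The main comparison asked which isolated regions differed between metastasis and primary lines of the same rounds, as the mean of the differences in rounds 2 and 3. Of the 1677 isolated regions, 1173 passed the filter on low counts and were tested, and 504 did not. Those 504 were narrower (median 281 bp) and lower in score (median 7.0). Among the 1173, 205 were higher and 49 lower in metastasis lines at an edgeR p under 0.05 adjusted by Benjamini and Hochberg over all tested regions (BH-adjusted), which is 254 or 21.7% of those tested. In all 39952 tested regions 20.2% were called, 11.2% as higher and 8.98% as lower. The share called was thus near that of all regions, and the direction was not: 80.7% of the called isolated regions were higher in metastasis lines, against 55.6% of all called regions. Called isolated regions spanned log2 fold changes from -4.78 to 5.0. Of them 124 higher and 19 lower ones changed 4-fold or more, a count that was not made over all tested regions. Without the 2 shallowest libraries, Met1 replicate 1 and Primary3 replicate 2, 211 of 269 called isolated regions were higher.

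Because a weak region could pass the filter through the group where it is high, the fit was repeated on the whole table with no filter. Then all 1677 isolated regions were tested, and 216 were called higher and 50 lower, with 18.6% of all regions called. Their median log2 fold change was 0.24, against 0.05 over all regions, and 1086 of them (64.8%) were above 0, against 53.2% of all regions. A stricter criterion, no overlap between metastasis and primary lines in round 2 and again in round 3 in the same direction, held for 120 tested isolated regions as higher (10.2%) and 27 as lower (2.30%). Among all tested regions it held for 5.77% and 4.96%. These shares describe the isolated regions beside the table they are part of, and the difference between them was not tested. A region with a count of 0 in Primary3 replicate 2 could not qualify as lower without overlap. That library had a count of 0 in 697 of the 1677 isolated regions, and its part in the split was not tested.

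The share of calls that were higher was larger in each class farther from the neighbours. For regions whose smaller gap was under 1 kb, 10.2% of those tested were higher and 11.7% lower in metastasis lines. At 1 to 10 kb these were 11.1% and 10.0%, and at 10 to 100 kb 11.3% and 7.77%. For isolated regions they were 17.5% and 4.18%. Within the isolated regions the split went further: 113 higher and 36 lower of 730 tested at 100 to 200 kb, 70 and 12 of 354 at 200 to 500 kb, and 22 and 1 of 89 at 500 kb or more. Each round alone gave its largest share of higher calls in isolated regions. In round 2 higher calls were 31.1%, 49.5%, 65.1% and 85.1% of the calls from the nearest to the farthest class, and in round 3 they were 53.5%, 53.2%, 56.6% and 80.0%.

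**Figure D2:**
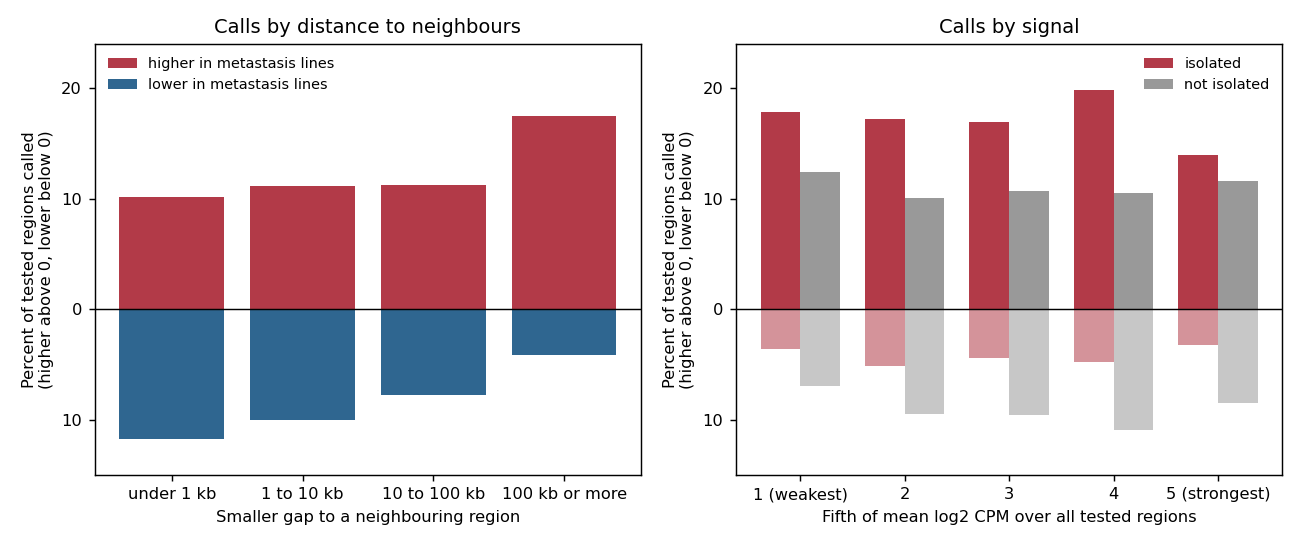
Percent of tested regions called higher (above 0) and lower (below 0) in metastasis lines of rounds 2 and 3 together. The left panel groups regions by the smaller of their 2 gaps. The right panel shows isolated regions and regions that were not isolated, by equal classes of mean signal over all tested regions, with lower calls paler. On the left, higher calls go from 10.2% to 17.5% and lower calls from 11.7% to 4.18% between the nearest and the farthest class.

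Signal strength moved with isolation, so the same split was read within 5 equal classes of mean signal over all tested regions. From the weakest to the strongest class, 17.8%, 17.2%, 17.0%, 19.8% and 14.0% of tested isolated regions were higher. The matching values for regions that were not isolated were 12.4%, 10.1%, 10.7%, 10.5% and 11.6%. Lower calls were 3.23% to 5.13% of isolated and 6.96% to 11% of other regions over the classes. In each class isolated regions had more higher and fewer lower calls. Isolated regions next to another isolated region had 156 higher and 26 lower calls among 808 tested, and those without one had 49 and 23 among 365. With no skipped peak number on either side the counts were 16 and 1 of 66 (24.2% and 1.52%). With 1 to 5 skipped numbers they were 142 and 26 of 634 (22.4% and 4.10%). With more than 5 they were 47 and 22 of 473 (9.94% and 4.65%). In that last class both shares were below those of all tested regions, 11.2% higher and 8.98% lower. Metastasis lines made up 9 of the 15 libraries and held 57.2% of the counts in regions, and the region set was called over all samples together. The part of that imbalance in the direction of the calls was not tested.

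By chromosome, the median log2 fold change of tested isolated regions was above that of all tested regions on 18 of 19 chromosomes and above 0 on 16. The exception to the first was chromosome 9, at 0.16 against 0.21. Chromosomes 8, 11 and 18 had lower medians over all regions, -0.29, -0.12 and -0.41, and isolated regions on them stood at -0.07, 0.21 and 0.04. On chromosome 18, 73 regions of the whole set were higher and 343 lower, while the isolated ones had 3 higher and 1 lower of 40 tested. On chromosome 11 the whole set had 152 higher and 298 lower, and the isolated regions 14 and 2 of 52. Chromosome 1 had the most called isolated regions, 25 higher and 5 lower of 109, with a median of 0.51 against 0.30 over all its regions. Its whole set had 516 higher and 154 lower of 2672. Higher calls were thus 83.3% of the isolated and 77.0% of all calls on chromosome 1. Chromosome 3 was the only one of the 19 without more higher than lower isolated calls, 6 and 7 of 79. Its whole set had 171 higher and 278 lower of 2212. With each library's chromosome medians removed, 186 of 244 called isolated regions were higher.

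**Figure D3:**
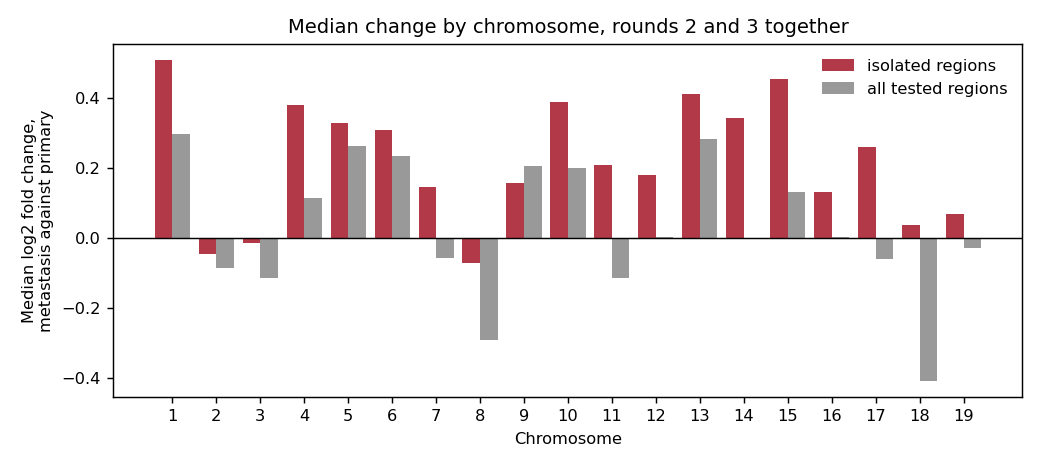
Median log2 fold change, metastasis against primary lines of rounds 2 and 3 together, of tested isolated regions and of all tested regions on each of 19 chromosomes. Isolated regions lie above all regions on 18 chromosomes, also on chromosomes 8, 11 and 18, where the median over all regions is below 0.

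The isolated regions that rose most were on chromosomes 1, 10, 12, 13, 15 and 17. They were taken from called regions with a mean signal at or above the median of the tested isolated regions. Every metastasis line also had to lie above every primary line of its round. The first was peak_6901, chromosome 10 from 31797306 to 31797920, 484394 and 906626 bp from its neighbours. It had 5.98, 49.3 and 69.9 CPM in Met2 and 79.6, 71.7 and 59.6 in Met3. In Primary2 it had 4.63, 1.09 and 2.42 CPM, in Primary3 3.85, 0 and 3.96, and in Met1 2.26, 2.22 and 1.19. All Met3 lines and 2 Met2 lines were high, Met2 replicate 1 was close to the primary lines, and every Met1 line was as low as those. Its log2 fold change was 4.09 ± 0.45 SE (edgeR BH-adjusted p = 2.17e-06). In round 2 alone it was 3.92, and 4.61 without Primary2 replicate 1.

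On chromosome 15, peak_32191 (67303065 to 67304039) had 13.9, 20.2 and 101 CPM in Met2 and 101, 100 and 36.3 in Met3. The primary lines had 0.579, 3.83 and 3.23 CPM in round 2 and 7.34, 3.19 and 4.13 in round 3, and the Met1 lines 1.13, 3.49 and 1.49. The later metastasis lines were high without overlap, with a wide spread in Met2 that rested on replicate 3. The log2 fold change was 4.0 ± 0.49 SE (edgeR BH-adjusted p = 8.62e-06), and 3.31 without that line. Against Met1, the same region was higher in Met3 (5.11 ± 0.71 SE, edgeR BH-adjusted p = 0.00016) and in Met2 (4.27 ± 0.71 SE, edgeR BH-adjusted p = 0.00175). Without Met1 replicate 2 these were 5.76 and 4.93. The Met2 value was 2.9 without Met2 replicate 3, and it was not called in a fit of the Met1 and Met2 lines alone (edgeR BH-adjusted p = 0.0671).

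A pair of neighbouring isolated regions on chromosome 17, 557800 bp apart with 6 skipped peak numbers between them, both rose. The first, peak_42793 (72129831 to 72130686), had 7.97, 25.6 and 37.7 CPM in Met2 and 32.2, 56.1 and 47.3 in Met3, against 3.48, 2.19 and 2.42 in Primary2 and 1.4, 6.37 and 1.72 in Primary3. The other, peak_42800 (72688486 to 72689227), had 39.2, 26.0 and 51.7 CPM in Met2 and 86.9, 78.2 and 59.6 in Met3, against 8.69, 4.38 and 3.23 in Primary2 and 1.75, 0 and 5.50 in Primary3. At both, Met3 had the highest group mean and no metastasis line of rounds 2 and 3 overlapped the primary lines of its round. Met1 had a lower mean than either and lines far apart, the highest of them above the lowest Met2 line at peak_42793, at 11.3, 3.17 and 5.67 CPM for peak_42793 and 5.66, 19.3 and 0.895 CPM for peak_42800. Fitted log2 fold changes were 3.82 ± 0.44 SE and 3.57 ± 0.47 SE (edgeR BH-adjusted p = 2.57e-06 and 1.79e-05). The latter was 4.18 without Primary3 replicate 3.

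A region with no skipped peak number on either side was peak_23475, chromosome 13 from 27404136 to 27404851, 163086 and 393574 bp from its neighbours. It had 15.9, 39.5 and 44.7 CPM in Met2, 35.2, 36.2 and 46.6 in Met3 and 19.2, 16.5 and 14.0 in Met1. The primary lines had 3.48, 2.19 and 0.807 CPM in round 2 and 3.50, 6.37 and 5.50 in round 3. Here every one of the 9 metastasis lines, round 1 included, was above every one of the 6 primary lines. The log2 fold change was 3.44 ± 0.35 SE (edgeR BH-adjusted p = 6.15e-07), the smallest adjusted p of the 10 named higher regions.

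The other 5 named higher regions had log2 fold changes from 3.39 to 3.65. They were peak_3088, peak_592 and peak_438 on chromosome 1, peak_30779 on chromosome 15 and peak_19627 on chromosome 12. Mean signal in peak_592 was 20.7 ± 4.62 CPM (SD, n = 3) in Met2 and 34.5 ± 7.42 in Met3, against 3.53 ± 1.72 in Primary2 and 0.917 ± 1.59 in Primary3, where 2 lines had a count of 0. Its log2 fold change of 3.47 became 5.75 without Primary3 replicate 3, the only line of that group with reads there. The value for peak_3088, 3.65, became 4.28 without Primary2 replicate 1. The value for peak_19627, 3.39, became 4.22 without Primary2 replicate 1 and 4.53 without Primary3 replicate 1. The directions and calls of these regions held without each line in turn, while the sizes rested on a few primary reads.

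By the same rule 71 isolated regions qualified as higher and 11 as lower, and the rule was not counted over all tested regions. A count of 0 in Primary3 replicate 2 kept a region off the lower list. Called isolated regions outside the rule reached log2 fold changes of -4.78 and 5.0. The 10 named lower regions had log2 fold changes from -2.35 to -1.41, smaller in size than those of the named higher regions. The first was peak_29478, chromosome 14 from 72195481 to 72196687, with 3.98, 4.04 and 4.89 CPM in Met2 and 2.43, 12.6 and 12.3 in Met3. The primary lines had 43.4, 41.6 and 29.8 CPM in round 2 and 18.9, 19.1 and 39.7 in round 3, and Met1 had 22.6, 5.39 and 8.65. Later metastasis lines were low without overlap in each round. That is a log2 fold change of -2.35 ± 0.39 SE (edgeR BH-adjusted p = 0.000154).

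On chromosome 3, peak_59195 (13640075 to 13641340) had 8.63, 20.2 and 4.19 CPM in Met2 and 8.50, 13.4 and 6.47 in Met3. It had 40.5, 47.6 and 42.8 CPM in Primary2, 65.0, 38.2 and 83.4 in Primary3 and 22.6, 37.4 and 18.2 in Met1. All 9 metastasis lines were below all 6 primary lines, with the Met1 mean between those of the later metastases and the primary groups. In log2 terms the fold change was -2.33 ± 0.31 SE (edgeR BH-adjusted p = 1.32e-05).

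A different order held for peak_26494, chromosome 14 from 6239699 to 6241221, 1196179 and 874067 bp from its neighbours. It had 26.0, 24.1 and 28.0 CPM in Met1, 5.98, 7.17 and 7.69 in Met2 and 0.607, 3.43 and 6.47 in Met3, against 17.4, 26.8 and 25.8 in Primary2 and 11.2, 19.1 and 17.4 in Primary3. Met1 and Primary2 lines overlapped at the top, and every Met2 and Met3 line lay below every line of the other groups. It fell by 1.93 on the log2 scale in rounds 2 and 3 together (SE 0.35, edgeR BH-adjusted p = 0.000445) and by 2.89 from Met1 to Met3 (SE 0.51, edgeR BH-adjusted p = 0.000943), a value of -3.51 without Met3 replicate 3. The remaining named lower regions were peak_6768 and peak_9041 on chromosome 10, peak_3607 on chromosome 1, peak_102413 and peak_101404 on chromosome 9, peak_55792 on chromosome 2 and peak_64986 on chromosome 4.

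Rounds 2 and 3 share no library, and each was also read alone within the same fit. In round 2, Met2 exceeded Primary2 in 97 isolated regions and fell below it in 17, with 6.21% of all tested regions called, 3.44% as higher and 2.77% as lower. In round 3, Met3 exceeded Primary3 in 120 and fell below it in 30, with 10.2% of all called, 5.64% as higher and 4.52% as lower. The median log2 fold change of tested isolated regions was 0.17 in round 2 and 0.39 in round 3, against 0.03 and 0.05 over all tested regions. The counts of calls rested in part on single lines. Round 2 fell to 51, 53 and 59 calls without Primary2 replicate 1, 2 or 3, and round 3 to 63, 81 and 83 without Primary3 replicate 1, Primary3 replicate 3 or Met3 replicate 1.

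Part of the calls were shared by the rounds. Of isolated regions called higher, 63 were called in both, which is 64.9% of the round 2 list and 52.5% of the round 3 list, beside 52.3% and 31.9% over all tested regions. Of those called lower, 9 were called in both, 52.9% and 30.0% of the lists, beside 55.7% and 34.0% over all tested regions. The differences between these shares were not tested. None of the isolated regions was called in opposite directions. Of the 97 regions higher in round 2, 94 had a fold change above 0 in round 3, and of the 120 higher in round 3, 119 had one above 0 in round 2. All 17 lower calls of round 2 and 27 of the 30 of round 3 kept their sign in the other round.

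**Figure D4:**
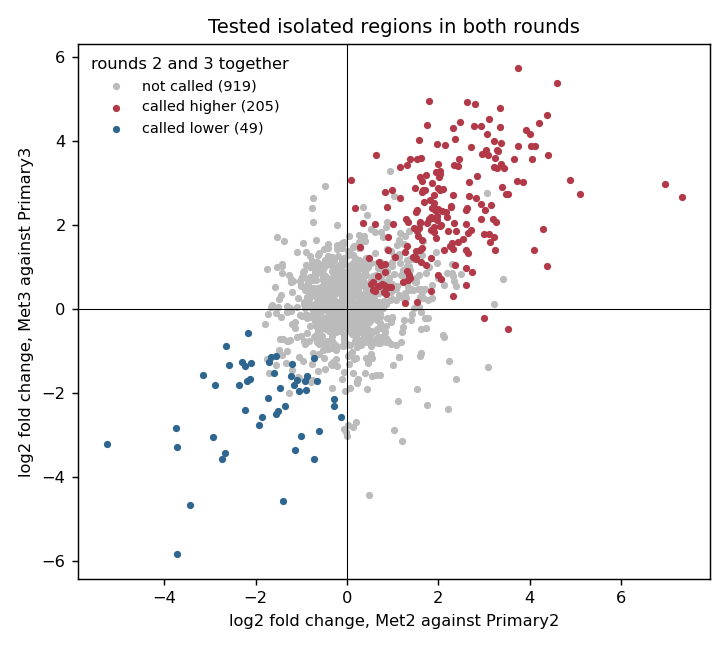
Log2 fold change of Met2 against Primary2 (x axis) and of Met3 against Primary3 (y axis) for the 1173 tested isolated regions. Colours mark regions called higher (205), called lower (49) or not called (919) in rounds 2 and 3 together. The 63 regions called higher in both rounds lie in the upper right and the 9 called lower in both in the lower left, but no colour sets them apart.

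A test of the difference between the rounds called 0 isolated regions with edgeR, where 78 had an unadjusted p under 0.05, and 0 with DESeq2. Of all tested regions 0.0% were called. The isolated regions with the smallest unadjusted p were peak_1425 on chromosome 1 and peak_25415 on chromosome 13, and neither passed. In peak_1425 (62444426 to 62445321) Met2 had 80.4, 6.73 and 44.7 CPM against 7.53, 6.56 and 11.3 in Primary2, and Met3 had 12.1, 2.67 and 5.18 against 22.7, 22.3 and 17.7 in Primary3. Met2 overlapped Primary2 through replicate 2, and Met3 lay below Primary3 without overlap. The log2 difference between rounds was -4.05 ± 0.99 SE (edgeR BH-adjusted p = 0.533).

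Met1 was compared with the later metastases, a comparison that shares its Met2 and Met3 lines with the comparisons above. Against Met1, 100 isolated regions were higher and 39 lower in Met3, with 9.54% of all tested regions called, 5.98% as higher and 3.56% as lower. Higher calls were thus 71.9% of the isolated and 62.7% of all called regions, yet the median log2 fold change of tested isolated regions was -0.10, below the -0.04 of all tested regions. With scaling by total counts 80 of 130 calls (61.5%) were higher. The count was 74, 79, 82 and 92 without Met1 replicate 3, Met3 replicate 1, Met1 replicate 2 or Met3 replicate 2. In Met2 against Met1, 55 were higher and 7 lower, with 3.55% of all called, 2.64% as higher and 0.909% as lower. That count was 19 without Met1 replicate 3 and 34 without Met1 replicate 2 or Met2 replicate 3, and a fit of the Met1 and Met2 lines alone called 2.

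Named regions show both directions. On chromosome 14, peak_29826 (96917967 to 96918844) had 9.06, 1.90 and 1.79 CPM in Met1, 27.9, 30.0 and 33.5 in Met2 and 57.1, 38.9 and 62.2 in Met3. Its primary lines had 6.37, 4.38 and 3.23 CPM in round 2 and 3.50, 3.19 and 9.63 in round 3. Met1 lay with the primary lines, Met2 above both and Met3 highest, with no overlap between the metastasis rounds. The log2 fold change of Met3 against Met1 was 4.03 ± 0.54 SE (edgeR BH-adjusted p = 7.86e-05), and 4.77 without Met1 replicate 1. On chromosome 9, peak_100850 (12313205 to 12314276) had 6.79, 0.634 and 3.58 CPM in Met1, 39.8, 39.5 and 44.7 in Met2 and 50.4, 47.3 and 40.8 in Met3. Met2 and Met3 overlapped there, far above Met1 and above the primary lines, whose highest was 12.7 CPM. Met2 against Met1 had a log2 fold change of 3.78 ± 0.56 SE (edgeR BH-adjusted p = 0.00062), 3.14 without Met1 replicate 2 and not called in the fit of those groups alone (adjusted p = 0.0518).

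The region with the largest named fall from Met1 was peak_91615, chromosome 7 from 110115801 to 110116345. It had 20.4, 28.9 and 31.9 CPM in Met1, 12.6, 2.24 and 0.699 in Met2 and 1.82, 0.381 and 3.24 in Met3. Primary2 had 16.8, 15.3 and 6.45 CPM and Primary3 7.69, 9.56 and 8.43. Met1 lines were the highest of all groups, without overlap. The log2 fold change of Met3 against Met1 was -4.01 ± 0.74 SE (edgeR BH-adjusted p = 0.00138), and -3.43 and -4.73 without Met3 replicate 2 or 3.

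Over the 205 isolated regions called higher in rounds 2 and 3 together, the Met1 mean on the log2 CPM scale lay between the means of the primary and the later metastasis lines in 149, below both in 40 and above both in 16. It was nearer the primary mean in 132 and nearer the later metastasis mean in 73. Medians over these regions were 2.57 log2 CPM in Met1, 3.97 in Met2, 4.12 in Met3, 1.87 in Primary2 and 1.53 in Primary3. Over the 49 lower regions Met1 lay between in 32, below both in 7 and above both in 10, and was nearer the primary mean in 24 and nearer the later metastasis mean in 25. Since the calls chose regions in which Met2 and Met3 stand apart from the primary lines, these positions are a description of Met1 and not of the other groups.

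The most remote isolated regions were weak. The largest smaller gap, 1893227 bp, belonged to peak_50217 on chromosome 19 (51189095 to 51189368), which had a mean signal of 2.74 CPM and was below the filter. The next was peak_30075 on chromosome 14 (111968455 to 111968908), 1555437 and 2023355 bp from its neighbours. It had 3.98, 10.3 and 25.2 CPM in Met2 and 23.1, 9.92 and 11.7 in Met3, against 0, 3.28 and 0 in Primary2 and 1.40, 0 and 1.38 in Primary3. Met1 had 1.13, 2.22 and 2.09 CPM. Later metastasis lines lay above the primary lines of their rounds without overlap, and Met1 lay with the primary lines. Its fitted log2 fold change was 3.42 ± 0.61 SE (edgeR BH-adjusted p = 0.000352), and 5.64 without Primary2 replicate 2, the only line of that group with reads there. Of the other remote ones named, peak_29819 (0.55 ± 0.50 SE, edgeR BH-adjusted p = 0.498) and peak_62575 (-0.25 ± 0.49 SE, edgeR BH-adjusted p = 0.777) did not pass, and peak_29822 was below the filter.

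Isolated regions also followed each other in runs. There were 45 runs of 5 or more consecutive isolated regions with 284 regions, of which 170 were tested and 38 called higher and 4 lower, beside 17.5% higher and 4.18% lower of all tested isolated regions and 11.2% and 8.98% of all tested regions. Of the 25 runs with 4 or more tested regions, 23 had a median log2 fold change above 0. The run with the most regions lay on chromosome 1 from 109673013 to 119993940, with 18 regions, of which 9 were tested, 8 were above 0 and 2 were called higher. On chromosome 14, a run from 87815571 to 98484469 held 10 regions, 7 of them tested and all 7 above 0. Its 3 called regions were peak_29826, peak_29827 and peak_29831, with log2 fold changes of 2.84 ± 0.36 SE, 2.40 ± 0.42 SE and 3.28 ± 0.87 SE. In peak_29831 the group means were 5.99 ± 7.18 CPM (SD, n = 3) in Met2 and 5.42 ± 4.79 in Met3. They were 4.89 ± 1.66 in Met1, 0.924 ± 0.832 in Primary2 and 0.172 ± 0.298 in Primary3, so its size rested on a few primary reads.

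On chromosome 11, a run from 9316152 to 11188022 held 6 regions, of which 5 were tested and 4 called higher. In peak_10896 the group means were 5.78 ± 4.10 CPM (SD, n = 3) in Met1, 27.8 ± 15.8 in Met2, 38.4 ± 21.2 in Met3, 7.47 ± 1.43 in Primary2 and 5.82 ± 1.43 in Primary3. The next region, peak_10897, had 2.32 ± 1.09, 11.2 ± 3.05, 24.2 ± 12.6, 3.21 ± 0.860 and 0.460 ± 0.525 CPM in the same order. Both were high in Met2 and Met3 and low in Met1 and the primary groups, with log2 fold changes of 2.31 ± 0.40 SE and 3.37 ± 0.45 SE (edgeR BH-adjusted p = 0.000249 and 1.75e-05). Beside them, peak_10899 had 0 counts in Primary2 and 10.7 ± 7.22 CPM in Met3. Its Met1 lines had 0, 29 and 0 reads, a mean of 3.07 ± 5.31 CPM, and its Primary3 lines had 2, 2 and 6 reads. It rose by 4.97 ± 1.11 SE (edgeR BH-adjusted p = 0.00298), and peak_10900 rose by 1.30 ± 0.38 SE (edgeR BH-adjusted p = 0.0155). The last tested region of the run, peak_10909, did not pass (0.31, edgeR BH-adjusted p = 0.734). These runs were picked after their values were seen, and their regions share chromosomes and libraries.

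Called isolated regions were narrower than tested ones that were not called, at similar signal and higher scores. The 205 higher ones had a median width of 580 bp, a median signal of 2.82 log2 CPM, a median score of 19.1 and a median absolute log2 fold change of 2.21. The 49 lower ones had medians of 610 bp, 3.01 log2 CPM, 23.8 and 1.83. The 919 tested regions that were not called had 702 bp, 2.84 log2 CPM, 12.6 and 0.36. These medians were not tested. Among all 1677 isolated regions, a count of 0 in all 3 lines of a group was rare, with 4 such regions in Primary2, 1 each in Primary3, Met1 and Met3, and 0 in Met2.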

How the data were processed

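ATAC-seq libraries of 15 organoid lines were compared. The authors deposited whole-number read counts per region and library for a region set called over all samples together, per the file headers. Per the submitters' processing notes, the build was mm9 and the tools were MACS2, bedtools, Bowtie, SAMtools and Picard, with no roles or versions. How the transposase offset, duplicates and mitochondrial reads were handled was not stated there. Scores in the region names are the authors' own, on an unstated scale. Gene annotation and sequence in mm9 were not used here, so no nearby gene is named and the tissue was not checked against marker genes.

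Gaps were computed from the coordinates in the region names. Counts were tested with edgeR 4.0.16 (limma 3.58.1, R 4.3.3), after filterByExpr (minimum count 10, minimum total count 15) and TMM scaling, in a robust quasi-likelihood fit of all 15 libraries with a mean for each of the 5 groups. P-values were adjusted by Benjamini and Hochberg over all tested regions, with calls at 0.05. Standard errors (SE) came from the fold change and its F statistic. Log2 CPM used a prior count of 2. The procedure was tested on simulated data.

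Groups came from the sample titles. Named regions were the 10 largest fold changes per direction in rounds 2 and 3 together, and the 3 largest in each other comparison. They had to be called, at or above the median signal of the tested isolated regions and without overlap between the lines compared. The strongest, most remote, least variable and threshold regions were named too. The members, rules and lists were chosen with earlier results of these data known. Same-numbered lines did not deviate together (correlations from -0.0758 to 0.0887), so replicate numbers were not treated as pairs. Alternatives were other scalings, DESeq2 1.42.0, other filters, fits of the compared groups, the replicate number as a block, chromosome medians removed, each library left out, and other gap thresholds. A fit without the 2 shallowest libraries was added after seeing the data.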

Additional observations from a re-analysis of the deposited data

Results flagged for a closer look

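The share of counts in isolated regions of Primary3 replicate 1, 1.40%, stood apart from the other 5 primary lines, with a gap to the nearest line of 0.783 of the whole range against a critical value of 0.625. Chance alone flags about 1 in 20 groups. Without that line 172 of 217 called isolated regions were higher in rounds 2 and 3 together, and 46 of 63 in round 3.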

How the results depend on the processing

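In rounds 2 and 3 together, calls among isolated regions stayed between 213 (stricter filter) and 274 (DESeq2) over the other scalings, filters, fits and tests, and between 217 and 273 without each library in turn, with 72.9% to 83.0% of them higher. Left-out libraries gave 51 to 125 calls in round 2, 63 to 186 in round 3, 74 to 180 for Met3 against Met1, 19 to 90 for Met2 against Met1 and 0 for the difference between rounds. The gap threshold set the counts: at 50000 bp they were 589 (431 higher) together, 219 in round 2, 338 in round 3, 301 for Met3 against Met1 and 114 for Met2 against Met1, with a mean share of counts of 5.26%. At 200000 bp they were 105 (92 higher), 45, 72, 54 and 30, with 0.626%. Fits of only the groups compared gave fewer calls in round 2 (62) and for Met2 against Met1 (2), more in round 3 (205) and for Met3 against Met1 (165), and 252 together.

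With the replicate number as a block, calls were 240 together, 93 in round 2, 122 in round 3, 121 for Met3 against Met1, 47 for Met2 against Met1 and 0 for the difference; the lines share only a number.

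Of 1389 alternative values for named regions 1346 kept direction and call, as did 480 of 480 for the 20 named in rounds 2 and 3 together. In 33 the call was lost, and 10 values, none of them called, changed sign. With chromosome medians removed peak_73170 had -0.064, and with total counts peak_53357 had -0.011 and peak_42191 -0.044. Without each library in turn peak_53357 ran from -0.0054 to 0.11, peak_62575 from -0.58 to 0.063, peak_98711 (0.88 with all libraries) from -0.21 without Met2 replicate 3 to 1.14 and peak_42191 from -0.076 to 0.083. The cause was not tested. Depth limits the 504 regions below the filter and any fold change that rests on a few primary reads.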

Other observations

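Some of the largest changes lay in isolated regions too weak for the naming rule and were chosen after their values were seen. On chromosome 2, peak_53361 (53377350 to 53377665) is the next region after peak_53357, one of the regions named above as least variable. It had 19, 15 and 11 reads in Primary2 and 21, 2 and 61 in Primary3, against 0, 1 and 0 in Met2 and 3, 2 and 0 in Met3 (edgeR BH-adjusted p = 0.000195). Met1 had 5, 1 and 10 reads. Primary lines thus had more reads than later metastasis lines in a region whose direct neighbour, at over 100 CPM in most lines, was even.

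On chromosome 10, peak_6868 (29428349 to 29428750) had 6, 46 and 6 reads in Primary2 and 43, 4 and 63 in Primary3. Met2 had 2, 0 and 2 reads, Met3 0, 1 and 0, and Met1 0, 4 and 15 (edgeR BH-adjusted p = 0.00014). In the opposite direction, peak_23014 on chromosome 13 (10243757 to 10244179) had no read in any Primary3 line and 2, 0 and 0 reads in Primary2. It had 43, 12 and 1 reads in Met2, 2, 3 and 8 in Met3 and 6, 71 and 9 in Met1 (edgeR BH-adjusted p = 0.00398). Met2 overlapped Primary2 there through replicate 3, and the reads were uneven among the metastasis lines. Fold changes are not given for these regions, since they rest on very few reads in the low groups.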
